A study of Mus musculus with 24 samples.

Results

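Carboxylesterases are serine hydrolases of the endoplasmic reticulum that split ester, thioester and amide bonds in drugs, prodrugs, pesticides, acylcarnitines and stored lipids. The mouse carries many of them as tandem copies, and liver, gut and the proximal tubule of the kidney are among the tissues best known for them. The transcripts of 8 of these genes, Ces1c, Ces1d, Ces1e, Ces1f, Ces1g, Ces2a, Ces2c and Ces2e, were described here in kidneys with inherited hydronephrosis. They were chosen by name, as the genes to which the accessions of 11 array probes led, and all 8 were among the 27958 genes tested. Their pattern over the control, mild, moderate and severe kidneys was known when they were chosen, so the values of the 8 genes between groups are given as a description, with no test.

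The study asked how the kidney responds to graded congenital obstruction. Whole kidneys came from male mice, of which the controls were mgb+/+ and the others were homozygous for megabladder (mgb-/-). This inherited defect leaves the bladder atonic and dilates the renal pelvis from before birth. The study's methods place the age-matched animals in the fourth or the fifth week after birth, and no treatment is named for either group. Ultrasound graded the mgb-/- kidneys by how much parenchyma was left. The arrays held 6 control kidneys and 18 mgb-/- kidneys, of which 7 were mild, 5 were moderate and 6 were severe. The strain, and which kidneys shared a mouse, were not given in the sources used here, so each kidney was counted as a sample, and the spread between kidneys may be smaller than that between mice.

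Each value is the log2 intensity of a probe on a single-colour array, from which the log2 of that array's 75th percentile was subtracted, so that 0 stands for the 75th percentile and a step of 1 for a doubling. A spot that the scanner software did not mark as well above background carries only a bound. Intensities of different probes depend on the probe, so levels were compared only within a gene. In RNA of a whole kidney, fewer cells of a type and less RNA per cell cannot be told apart.

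The labelled tissue was borne out by its defining markers in all 24 kidneys, since the proximal tubule transporters Slc34a1, Slc5a2 and Slc5a12 were well above background on 24 arrays each. Some kidneys stood apart. The array of severe 4 had 660 outlier spots, against 102 to 261 on the others. Severe 5 had the lowest summed level of the 20 proximal tubule markers, 760 times the 75th percentile. The next lowest kidney, severe 2, had 1832, and mild and moderate kidneys had 2002 to 3460. The summed level of 5 adrenal markers, including the steroidogenic enzymes Cyp11a1 and Cyp11b1, was 127.7 in mild 4 and 111.2 in moderate 1, against at most 0.207 in control kidneys. It was 2.48 in mild 6, 2.09 in mild 2, 2.04 in moderate 3 and 1.14 in mild 5, and below 1 in the other mgb-/- kidneys. Markers of liver, among them albumin (Alb), varied as described below. The arrays lay on 3 slides, each with 2 control and 6 mgb-/- kidneys.

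All carboxylesterase genes listed here lie on chromosome 8 in the RefSeq table, in 2 runs of neighbours. The first run holds Ces1a to Ces1h in alphabetical order and then Ces5a. The second run holds Ces2a to Ces2h, Ces3a, Ces3b and Ces4a. Ces1c to Ces1g are thus immediate neighbours among protein-coding genes, and Ces2a, Ces2c and Ces2e lie in the other run. RefSeq promoter windows were at hand for 6 of the 8 genes, all but Ces1d and Ces1f. The 120 bases before the annotated start (GRCm38.p6) are printed for these 6, because genes next to each other took different courses in the kidneys below. Capitals mark matches to GAACTTT, to GCAAAGT, to the CCAAT box and to the TATAAA box on either strand. On the opposite strand GCAAAGT can overlap GAACTTT, and its letters are part of the direct repeat known for the nuclear receptor HNF4A.
Ces1c, minus strand, chr8:93131284-93131403: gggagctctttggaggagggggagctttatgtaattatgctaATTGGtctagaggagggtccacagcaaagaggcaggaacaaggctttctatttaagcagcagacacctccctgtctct
Ces1e, minus strand, chr8:93229620-93229739: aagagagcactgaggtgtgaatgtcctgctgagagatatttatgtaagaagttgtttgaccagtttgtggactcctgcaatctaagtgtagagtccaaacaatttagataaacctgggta
Ces1g, minus strand, chr8:93337210-93337329: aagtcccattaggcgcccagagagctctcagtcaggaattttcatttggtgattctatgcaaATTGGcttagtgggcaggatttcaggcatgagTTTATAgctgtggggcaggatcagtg
Ces2a, plus strand, chr8:104733883-104734002: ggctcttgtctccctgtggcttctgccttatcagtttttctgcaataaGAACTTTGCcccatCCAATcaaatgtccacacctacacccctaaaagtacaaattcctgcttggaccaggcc
Ces2c, plus strand, chr8:104846948-104847067: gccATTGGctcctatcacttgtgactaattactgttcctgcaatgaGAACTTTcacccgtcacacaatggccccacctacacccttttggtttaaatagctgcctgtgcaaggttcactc
Ces2e, plus strand, chr8:104926140-104926259: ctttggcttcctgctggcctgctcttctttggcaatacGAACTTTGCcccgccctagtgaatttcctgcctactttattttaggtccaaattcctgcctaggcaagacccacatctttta

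Over the 250 bases before the start, the 3 Ces2 promoters printed above held GAACTTT. It began at -72 in Ces2a, -74 in Ces2c and -82 in Ces2e, where -1 is the last base before the start. None of the 3 Ces1 promoters printed held it, nor did the 9 other carboxylesterase promoters at hand. Those 9 include Ces2f, Ces2g and Ces2h, so the string was not shared by all Ces2 genes. These letters occurred in 3.28% of all 32851 mouse promoter windows of that length. GCAAAGT was found in Ces2a and Ces2e, in Ces2f and Ces2g among the 9 others, and in 3.11% of all windows. Both strings were chosen after these windows had been read. The CCAAT box stood in 4 of the 6 promoters, those of Ces1c, Ces1g, Ces2a and Ces2c, and in 33.8% of all windows. TATAAA stood at -26 in Ces1g and in 12.4% of all windows. Aligned over their 250 bases with free ends, the promoters of Ces2a and Ces2c were identical at 67.5% of aligned bases, and those of Ces2a and Ces2e at 69.9%. The promoter of Ces2f, which lacks GAACTTT, was closer, with 74.5% identity to Ces2a and 73.9% to Ces2c. The closest pair in the family was Ces1b and Ces1c, with 93.3% identity. A match is a description of letters and not of binding.

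Of the 8 genes, 6 had lower mean levels in mgb-/- than in control kidneys and 2, Ces1c and Ces2a, had higher means. The fit called 4 genes lower, Ces1f, Ces1g, Ces2c and Ces2e, and none higher, where a call is an adjusted p under 0.05 with a fold of at least 2 and 1.27% of all genes were called lower. Since the rule that chose the genes used these groups, nothing is read from that share. The median log2 difference of the 8 genes was -1.26, against 0.01 over all genes tested. Dividing arrays by their median in place of the 75th percentile moved the median of all genes to -0.15, and the direction of each of the 8 genes in this comparison was the same in every setting tried.

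**Figure D1:**
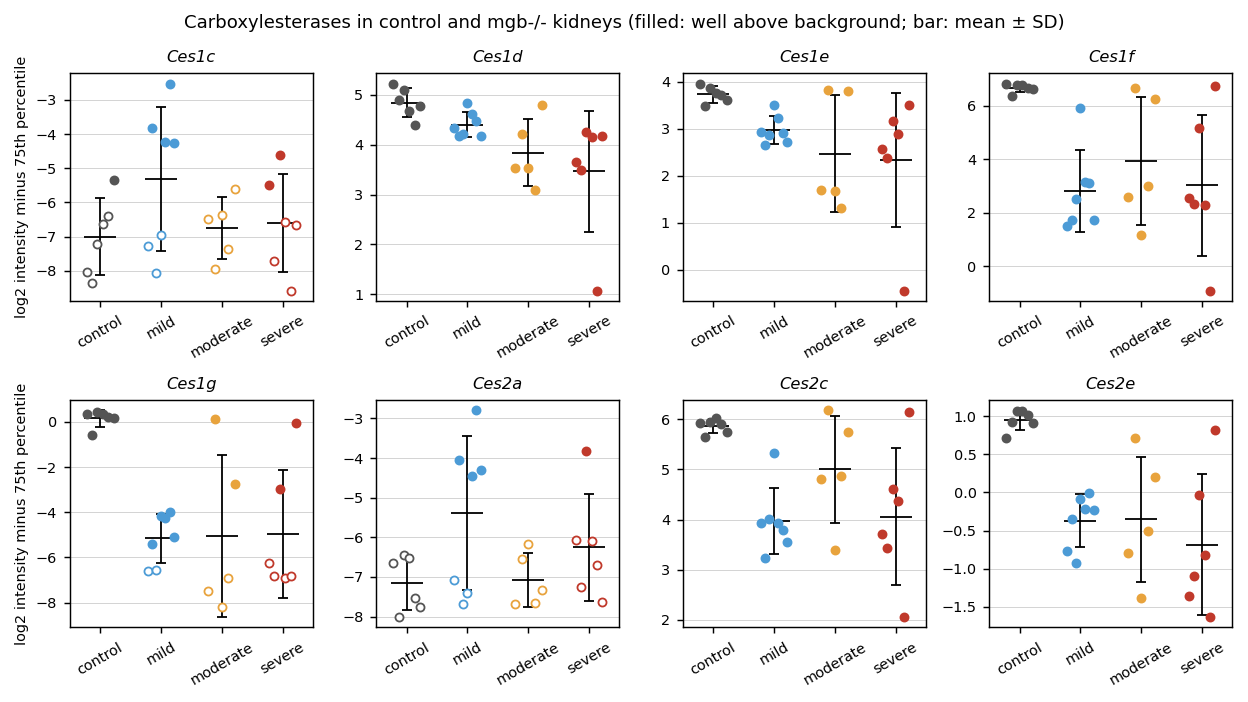
Log2 intensity minus the array's 75th percentile (vertical axis) of the 8 carboxylesterases in 6 control, 7 mild, 5 moderate and 6 severe kidneys, 1 point per kidney, with the group mean ± SD as black bars and open points for spots not well above background. Control kidneys lie close together for Ces1f, Ces2c and Ces2e, while single moderate and severe kidneys reach the control level.

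Ces1f, a hydrolase of triacylglycerol, had the widest spread among the genes bright on all 24 arrays. The control kidneys ran from 6.35 to 6.79, with a median of 6.71. The mild kidneys ran from 1.52 to 5.92 with a median of 2.52, and all 7 lay below the lowest control. The moderate kidneys read 2.59, 6.67, 1.19, 3.01 and 6.23, and the severe kidneys ran from -0.90 to 6.72 with a median of 2.44. Moderate 2 and severe 6 thus lay inside the control range, moderate 5 and mild 4 lay just below it, and severe 3 reached 5.15. The other 13 mgb-/- kidneys lay at 3.15 or below, so that a gap of almost 2 log2 units separated them from these 5. The control mean was 6.66 ± 0.17 (SD, n = 6). The mgb-/- kidneys averaged 3.20 ± 2.11 (SD, n = 18), which makes a log2 difference of -3.46 (SE 0.84), or 11.0-fold.

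Ces1g, known from liver as a hydrolase that bears on blood lipids, had the largest difference of the 8 as processed here, a rank that depends on the background treatment. It was well above background in all 6 control kidneys, which ran from -0.56 to 0.46 with a median of 0.27. Of the mgb-/- kidneys, 9 of 18 were well above background. The mild kidneys ran from -6.60 to -4.01 with a median of -5.11, the moderate ones read -7.50, 0.13, -8.21, -6.91 and -2.77, and the severe ones ran from -6.90 to -0.07 with a median of -6.53. Only moderate 2 and severe 6 lay inside the control range, and moderate 5 and severe 3 followed at a distance. The control mean was 0.16 ± 0.37 (SD, n = 6), and the mgb-/- kidneys averaged -5.06 ± 2.41 (SD, n = 18). The log2 difference of -5.23 (SE 0.96) rests on spots at background. With a normexp background correction with an offset of 50 it was -3.06, smaller than the -3.44 of Ces1f in that setting, and in the authors' normalized table it was -3.53.

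Ces2c, which cleaves acylcarnitines and acylglycerols, had 3 probes, and its brightest was used. The control kidneys ran from 5.65 to 6.03, with a median of 5.91. The mild kidneys ran from 3.24 to 5.33 with a median of 3.92, all below the controls. The moderate kidneys read 4.81, 6.19, 3.39, 4.87 and 5.74, and the severe kidneys ran from 2.06 to 6.15 with a median of 4.04. Moderate 2 and severe 6 exceeded the highest control, and 15 of 18 mgb-/- kidneys lay below the lowest. The log2 difference was -1.58 (SE 0.43), or 3.00-fold, and the other probes gave differences of group means of -1.68 and -1.65.

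Ces2e, named for its hydrolysis of pyrethroid insecticides, varied least among the controls on the probes used, with an SD of 0.13. On the other Ces2c probes the control SD was smaller, at 0.06 and 0.08. The Ces2e controls ran from 0.72 to 1.07 with a median of 0.97. The mild kidneys ran from -0.93 to 0.00 with a median of -0.22. The moderate kidneys read -0.79, 0.71, -1.39, -0.50 and 0.20, and the severe kidneys ran from -1.64 to 0.82 with a median of -0.96. Of the mgb-/- kidneys, 17 of 18 lay below the lowest control, severe 6 being the exception, and moderate 2 missed it narrowly. The log2 difference was -1.42 (SE 0.28), or 2.68-fold. A further Ces2e probe was well above background on 2 control arrays alone.

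Ces1d is the main triacylglycerol hydrolase of liver and fat. Ces1e, also called egasyn, holds β-glucuronidase in the endoplasmic reticulum. Both had smaller differences than the 4 genes called lower. Ces1d ran from 4.40 to 5.22 in control kidneys with a median of 4.83, and from 4.17 to 4.84 in mild ones with a median of 4.34. The moderate kidneys read 3.54, 4.21, 3.53, 3.09 and 4.80, and the severe ones ran from 1.07 to 4.25 with a median of 3.90. All 6 severe kidneys lay below the lowest control, severe 6 included, and 14 of 18 mgb-/- kidneys did. The log2 difference of mgb-/- against control kidneys was -0.91 (SE 0.35), short of a call.

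Ces1e ran from 3.48 to 3.96 in control kidneys, with a median of 3.73. It ran from 2.67 to 3.51 in mild kidneys with a median of 2.92, and from -0.44 to 3.51 in severe ones with a median of 2.72. The moderate kidneys fell apart into moderate 2 and moderate 5, at 3.83 and 3.81 inside the control range, and the other 3 at 1.69, 1.68 and 1.32. Mild 4 and severe 6, both at 3.51, also lay inside that range. The other 14 mgb-/- kidneys lay below the lowest control. The log2 difference was -1.11 (SE 0.42), and the gene was not called. In severe 5, the kidney with the lowest proximal tubule markers, Ces1d was at 1.07 and Ces1e at -0.44, both far below all other kidneys.

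Ces1c, the esterase that liver secretes into mouse plasma, and Ces2a, a close relative of Ces2c, were dim and went the other way. Ces1c was well above background in 1 of 6 control, 4 of 7 mild, 0 of 5 moderate and 2 of 6 severe kidneys. Ces2a was so in 0 of 6 control, 4 of 7 mild, 0 of 5 moderate and 1 of 6 severe kidneys. Mild 2, 5, 6 and 7 and severe 3 were the kidneys in which both were, with Ces1c at -3.81, -4.22, -2.53, -4.27 and -4.62, and Ces2a at -4.06, -4.44, -2.78, -4.31 and -3.81. Severe 1 and control 6 carried Ces1c alone, at -5.48 and -5.34. No mean log2 difference of these genes was called, with 0.85 (SE 0.71) for Ces1c and 1.00 (SE 0.64) for Ces2a in mgb-/- against control kidneys. The measured Ces2a means were -5.39 in mild and -7.15 in control kidneys. With control spots raised to the lowest signal well above background and mild spots left as measured, the mild mean was 1.34-fold higher. Only 4 of 7 mild spots were above background, so this is not a strict lower bound. The same reckoning gave log2 values of -0.44 for severe and -0.33 for all mgb-/- against control kidneys.

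These same 5 kidneys had the highest albumin of all. Alb, the main plasma protein made by liver, was at 1.08, 1.08, 2.68, 1.13 and 1.18 in them, against -3.24 to -2.53 in control kidneys and at most -0.35, in moderate 5, among the other mgb-/- kidneys. Of the 10 liver markers, 7 to 9 lay above the highest control in each of the 5, as did 7 in moderate 5, where Ces1c and Ces2a stayed at background. The other 12 mgb-/- kidneys had 1 to 5 such markers. Ahsg (fetuin-A, a plasma glycoprotein) read 1.07, 1.17, 2.60, 0.90 and 1.04 in the 5 kidneys, while every control spot of it was at background. The summed level of the 10 markers ran from 5.94 to 18.1 in control, 5.83 to 32.6 in mild, 6.06 to 18.4 in moderate and 12.7 to 23.3 in severe kidneys. Over the 18 mgb-/- against the 6 control kidneys, 2 of the 10 liver markers, Ahsg and Hpx, were called higher, where 1.82% of all genes were. By direction alone 8 of the 10 were higher and 2 lower, and in severe against control kidneys 6 were higher and 4 lower. Over the 18 mgb-/- kidneys the Pearson r with Alb was 0.88 for Ces1c and 0.76 for Ces2a. It was 0.62 for Ces1d, 0.57 for Ces2e and 0.51 for Ces1e, and lower for the other genes. In the 13 kidneys without high Ces1f it was 0.94 for Ces2e, 0.90 for Ces1c, 0.84 for Ces1g and 0.82 for Ces2a. The remaining genes had lower values there, down to 0.22 for Ces2c. A link with Alb was thus not particular to Ces1c and Ces2a. The part of liver RNA in the levels of the 8 genes was not tested.

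**Figure D2:**
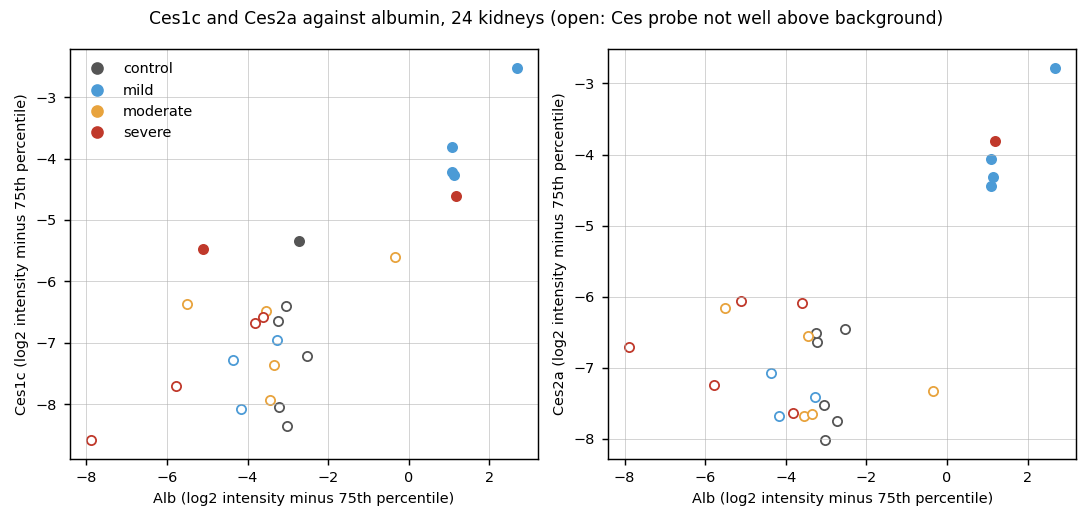
Log2 intensity minus the 75th percentile of Ces1c (left) and Ces2a (right) against that of albumin (Alb, horizontal axes) in 24 kidneys coloured by group, with open points where the carboxylesterase spot was not well above background. The 5 kidneys with Alb at 1.08 or more, 4 mild and 1 severe, are the brightest for both genes.

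Mild, moderate and severe kidneys were each set against the same control kidneys, so their values are set side by side and not as separate evidence. In mild against control kidneys Ces1f, Ces1g, Ces2c and Ces2e were called lower, where 1.06% of all genes were. That count was 1 without control 3 and 1 with the replicate block, and 2 without control 4, mild 2, mild 3 or mild 7. In moderate against control kidneys Ces1g alone was called lower, where 0.2% of all genes were, and this call was lost in most settings tried. In severe against control kidneys Ces1d, Ces1f, Ces1g, Ces2c and Ces2e were called lower, where 1.72% of all genes were. Without severe 5 that count was 2, and without severe 4 and severe 5 together it was 1. These counts in other settings have no share of all genes beside them. The genes called in all also change with the setting, from 616 to 273 for mild against control kidneys with the replicate block. No grade called any of the 8 genes higher.

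Ces1f differed from control by -3.84 (SE 1.01) in mild, -2.72 (SE 1.10) in moderate and -3.63 (SE 1.05) in severe kidneys. Ces1g differed by -5.32 (SE 1.19), -5.21 (SE 1.29) and -5.13 (SE 1.23), but 2 of 7 mild, 3 of 5 moderate and 4 of 6 severe spots were at background, so these values do not show whether the grades were alike. Ces2c differed by -1.90 (SE 0.49), -0.87 (SE 0.53) and -1.81 (SE 0.50), and Ces2e by -1.32 (SE 0.34), -1.30 (SE 0.37) and -1.64 (SE 0.35). For Ces1f and the brightest Ces2c probe the mild kidneys, with the most parenchyma, had the lowest mean. On the other Ces2c probes the severe mean was lowest, at 2.27 against 2.32 in mild kidneys and 3.75 against 3.76. The Ces1f median was also lowest in severe kidneys, at 2.44 against 2.52 in mild ones. Ces1d differed by -0.44 (SE 0.38), -1.01 (SE 0.41) and -1.38 (SE 0.39), and Ces1e by -0.75 (SE 0.49), -1.27 (SE 0.54) and -1.39 (SE 0.51). The means of these 2 genes stood in the order control, mild, moderate, severe, but only the step from control to mild exceeded the larger SD of the neighbours. For Ces1f, Ces1g and Ces2e too, only the step from control to the nearest grade did, and for Ces2c, Ces1c and Ces2a no step between neighbouring means did.

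**Figure D3:**
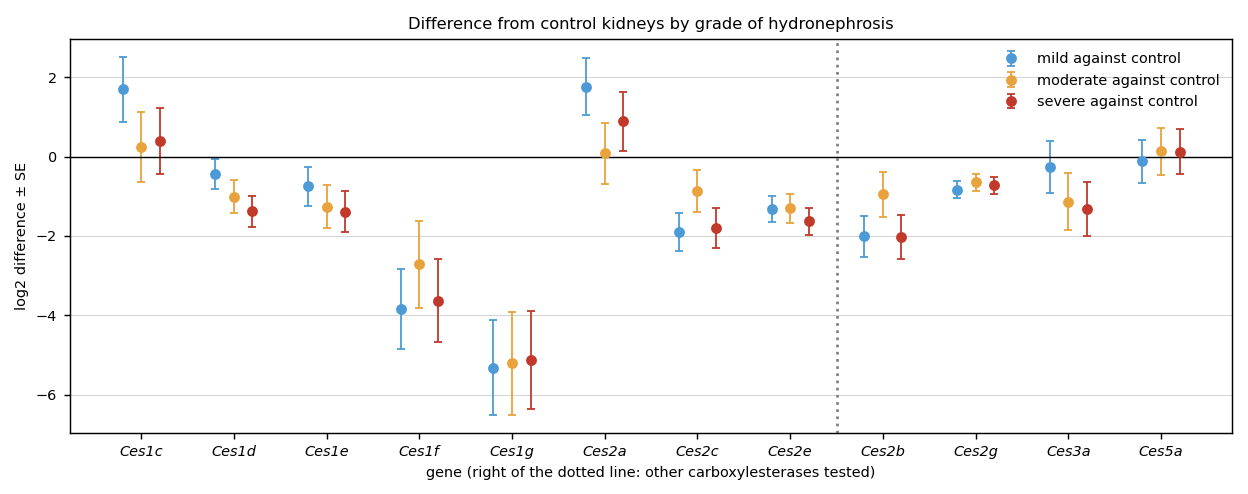
Log2 difference from the 6 control kidneys ± SE (vertical axis) in 7 mild, 5 moderate and 6 severe kidneys, for the 8 carboxylesterases and, right of the dotted line, the 4 others tested. Ces1f and Ces1g lie lowest in every grade, and Ces1d and Ces1e lie lower from mild to severe with overlapping errors.

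Between grades none of the 8 genes was called. The log2 differences of severe against mild kidneys ran from -1.30 (SE 0.81) for Ces1c to 0.21 (SE 1.01) for Ces1f, where 0.461% of all genes were called in either direction. Those of moderate against mild kidneys ran from -1.68 (SE 0.75) for Ces2a to 1.12 (SE 1.06) for Ces1f, where 0% were. Those of severe against moderate kidneys ran from -0.94 (SE 0.53) for Ces2c to 0.82 (SE 0.78) for Ces2a, where 0.00715% were. The SE of a difference between grades ran from 0.34 to 1.29 over the 8 genes.

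Within each slide the 6 mgb-/- kidneys could be set against the 2 controls beside them. The difference of means over the 3 slides ran from -3.92 to -2.83 for Ces1f, -6.53 to -3.51 for Ces1g, -1.66 to -1.49 for Ces2c and -1.60 to -1.19 for Ces2e. It ran from -1.04 to -0.79 for Ces1d and from -1.43 to -0.89 for Ces1e. For Ces1c it ran from 0.32 to 1.57, and for Ces2a from -0.32 to 2.29, with a change of sign between slides.

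**Figure D4:**
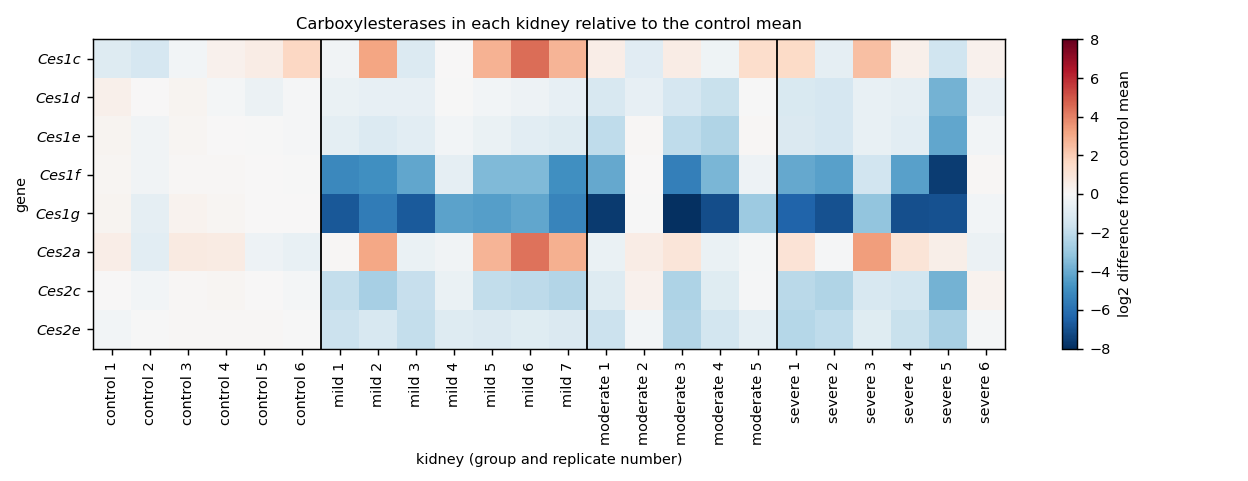
Log2 difference from the control mean (colour, red above and blue below) of the 8 carboxylesterases (rows) in each of the 24 kidneys (columns, control, mild, moderate and severe from left to right). Moderate 2 and severe 6 are near white throughout, severe 5 is the darkest blue for Ces1d to Ces1f, and Ces1c and Ces2a are red in mild 2, 5, 6 and 7 and severe 3.

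The 5 kidneys with Ces1f above 5 differed in how many of the others they kept. Severe 6 lay below the control range for 1 of the 8 genes, moderate 2 for 2, moderate 5 for 3, mild 4 for 4 and severe 3 for 6, while the remaining 13 mgb-/- kidneys did so for 5 to 7. Over the 18 mgb-/- kidneys Ces1f and Ces2c, which lie in different runs of the chromosome, had a Pearson r of 0.92 (Spearman rho 0.83), and Ces1g and Ces2e had 0.91 (rho 0.85). The neighbours Ces1d and Ces1e had 0.94 (rho 0.88). In the 13 kidneys without high Ces1f these values were 0.79, 0.75 and 0.97. Ces1e and Ces1f, also neighbours, had 0.77 in all 18 kidneys and 0.70 in the 13. Ces1f and Ces1g, neighbours too, had 0.84 in all 18 kidneys and 0.36 in the 13, where many Ces1g spots were at background. Ces1c and Ces2a had 0.86 in all 18 and 0.23 in the 13 kidneys without Ces2a above background. Kidneys share arrays' depth and tissue makeup, so these values only describe.

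The genes most like each carboxylesterase over the 18 mgb-/- kidneys were sought among 14398 named genes well above background on at least 17 of their arrays. Ces1f was most like Pzp, a protease inhibitor of the α2-macroglobulin family (r 0.98, rho 0.93, r 0.98 without the 2 kidneys farthest from the median), and Ugt2b38, a glucuronosyltransferase (r 0.98, rho 0.97, r 0.97). Ces2c was most like Acot12, an acetyl-CoA hydrolase (r 0.98, rho 0.98, r 0.97), and Hsd3b3, a steroid dehydrogenase (r 0.97, rho 0.93, r 0.95). In the 13 kidneys without high Ces1f these 4 values of r ran from 0.90 to 0.96. Pzp itself was at 4.52 in moderate 2, 4.42 in moderate 5, 4.36 in severe 6 and 4.04 in mild 4, against 4.22 to 4.60 in control kidneys and -2.50 in severe 5.

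Ces1e was most like Ggt1, the γ-glutamyltransferase of the proximal tubule brush border (r 0.97, rho 0.92, r 0.93), and Oxct1, an enzyme of ketone body use (r 0.97, rho 0.95, r 0.93). Ces1d was most like Mcur1, a regulator of mitochondrial calcium uptake (r 0.96, rho 0.78, r 0.89), and Vwce (r 0.95, rho 0.85, r 0.89). Ces1g was most like Asxl3 (r 0.97, rho 0.98, r 0.93) and Myom3 (r 0.96, rho 0.94, r 0.91), and in the 13 kidneys these fell to 0.85 and 0.80. Ces2e was most like Trim13, a ubiquitin ligase (r 0.97, rho 0.96, r 0.96), and Wdr18 (r 0.96, rho 0.94, r 0.96). Ces1c was most like Vtn, the plasma protein vitronectin (r 0.88, rho 0.77, r 0.79), and Mtrr (r 0.88, rho 0.87, r 0.88). Ces2a was most like Hpx, hemopexin (r 0.86, rho 0.72, r 0.78), and Ambp, the precursor of α1-microglobulin (r 0.86, rho 0.80, r 0.83). In the 13 kidneys without Ces2a above background the 4 values for Ces1c and Ces2a were 0.43, 0.75, 0.25 and 0.66. With quantile normalization the r of Ces1c and Mtrr over all 18 kidneys was 0.71, so it depends on the scaling.

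**Figure D5:**
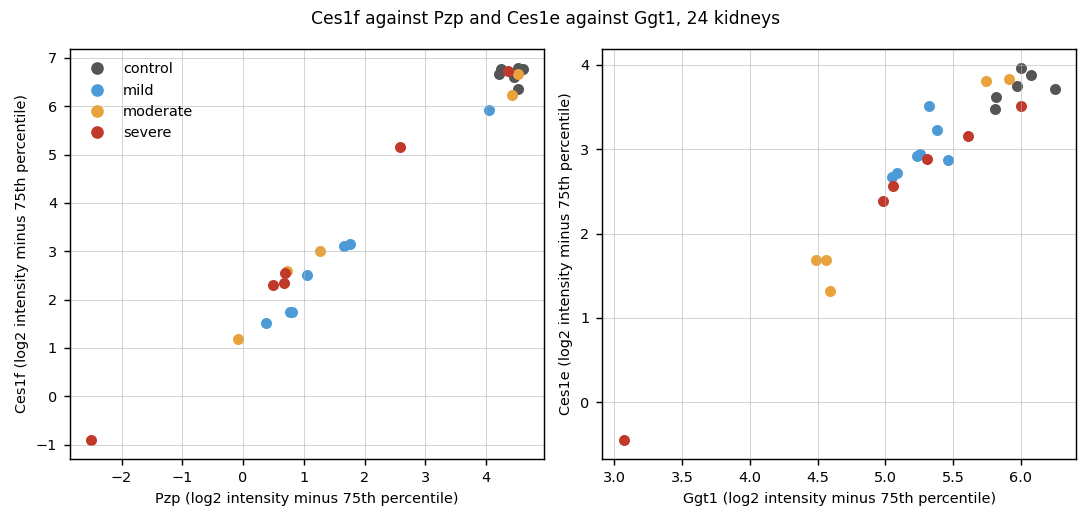
Log2 intensity minus the 75th percentile of Ces1f against Pzp (left) and of Ces1e against Ggt1 (right) in 24 kidneys coloured by group. Moderate 2, moderate 5, severe 6 and mild 4 lie with or near the controls for Ces1f and Pzp, and severe 5 is lowest in both panels.

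Of the 12 other annotated carboxylesterases, 9 had a probe and 4 were tested. Ces2b, the neighbour between Ces2a and Ces2c, fell in mgb-/- kidneys by 1.71 on the log2 scale (SE 0.46, limma adjusted p = 0.0191), where 1.27% of all genes were called lower. It stands in the study's own list of changed genes, so it is not independent of these kidneys, and severe 4 had no value. Ces2b ran from 4.79 to 5.22 in control, 2.36 to 4.45 in mild and 1.29 to 5.38 in severe kidneys, and read 3.85, 5.48, 2.48, 3.99 and 4.93 in moderate ones. Its r with Ces2c over the mgb-/- kidneys was 0.996, and whether their probes cross-hybridize was not tested.

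Ces2g fell in mgb-/- kidneys by 0.75 (SE 0.17, limma adjusted p = 0.00758), under a doubling. Ces3a had a difference of -0.86 (SE 0.57, limma adjusted p = 0.333) and Ces5a one of 0.03 (SE 0.44, limma adjusted p = 0.977). Ces3a was highest in mild 6 at -1.90 and severe 3 at -2.02, both among the kidneys with high albumin, and was at background in 5 mgb-/- kidneys. Ces1a, Ces1b, Ces2f, Ces3b and Ces4a were well above background on too few arrays to be tested, and Ces1h, Ces2d-ps and Ces2h were not measured by a mapped probe.

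Of 21 other listed hydrolases of esters and neutral lipids 19 were tested, of which 3 fell at an adjusted p under 0.05, none rose, and the median log2 difference was -0.19. Of all genes, 7.9% were lower and 5.22% higher at that adjusted p, with no fold minimum. Only Afmid, the formamidase of tryptophan breakdown, also passed a doubling, with a fall of 1.0 on the log2 scale (SE 0.26, limma adjusted p = 0.0165). Among 14 transcription regulators known to act on carboxylesterase genes in liver, 3 fell and 1 rose at an adjusted p under 0.05, beside the same 7.9% and 5.22% of all genes, with a median of -0.12. The gene that rose was Cebpb, a basic leucine zipper factor of the acute phase response, by 1.58 (SE 0.20, limma adjusted p = 7.55e-05). Its control kidneys ran from 1.76 to 2.48 and its mgb-/- kidneys from 2.88 to 4.40, without overlap. Hnf4a, named after its values were seen because of the promoter letters, had a difference of -0.59 (SE 0.54, limma adjusted p = 0.513). It lay between 5.62 and 7.67 in all kidneys but severe 4, which read 1.47 on the array with the most outlier spots.

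Genes that the study singled out as male-biased were set beside the carboxylesterases. The study chose them on these kidneys, so their direction is not independent. Ces1f is itself on that list, and the other 11 genes are described here. All 11 were called lower in mgb-/- kidneys, where 1.27% of all genes were, from Slco1a1, an organic anion transporter, at -5.65 (SE 1.08, limma adjusted p = 0.00293) to Ugt8a at -1.27 (SE 0.35, limma adjusted p = 0.0192), with a median of -3.21. Their summed level was 295 in moderate 2 and 289 in severe 6, inside the control range of 198 to 316. It was 157 in moderate 5, 129 in mild 4 and 63.1 in severe 3, and from 6.43 to 25.5 in the other 13 mgb-/- kidneys. The 5 kidneys with the highest sums were the 5 with Ces1f above 5, a gene from the same list.

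Of the 20 proximal tubule markers, 2 fell at an adjusted p under 0.05, where 7.9% of all genes did, none rose, and the median log2 difference was -0.23. Only Slc22a7, an organic anion transporter, was called, at -2.28 (SE 0.52, limma adjusted p = 0.00763), while Slc34a1 had -0.46 (SE 0.22, limma adjusted p = 0.169). The summed level ran from 2476 to 3031 in control, 2089 to 2808 in mild, 2002 to 3460 in moderate and 760 to 2855 in severe kidneys. Among the 6 urothelium markers, 2 were called higher, beside the 1.82% of all genes, with a median of 1.85. None of the adipocyte, adrenal, podocyte or leukocyte markers tested passed an adjusted p under 0.05 in mgb-/- against control kidneys. Among the thick limb, distal tubule and collecting duct markers 1 of 9 rose at an adjusted p under 0.05, where 5.22% of all genes did, short of a doubling. The part of these cell types in the levels of the carboxylesterases was not tested. Without mild 4 and moderate 1, the kidneys with the highest adrenal sums but not the only ones above the controls, the count of the 8 genes called lower in mgb-/- kidneys was 4.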

How the data were processed

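The 24 arrays each held total RNA of a whole kidney, labelled with Cy3. The authors deposited Agilent Feature Extraction 10.10 output, in which the processed signal is an intensity with background subtracted within the array and median signal and background are uncorrected intensities, beside 0 or 1 flags of other kinds. They also deposited a table of intensities normalized between arrays by a method not given in the sources used here. The processed signal was set to log2 minus the array's 75th percentile, outlier spots were left out, and a probe was kept (38834 of 55681) if it stood well above background on 5 of 24 arrays or more. Between 55.1% and 70.7% of probes stood well above background, no spot was saturated, and 26762 probes were named through RefSeq accessions (GRCm38.p6, used for names, gene order and promoter windows). Each gene was represented by its brightest probe. The number of arrays limits the precision.

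Limma 3.58.1 in R 4.3.3 fitted 2 groups for mgb-/- against control and 4 groups for grades, with Benjamini-Hochberg adjustment over 27958 genes, of which 323 lacked a value on some array. On simulated data of 27635 genes the fit of mgb-/- against control called 31.8%, 88.1% and 100% of genes changed by 1, 2 and 3 log2 units, with 1 false call. Each simulated gene had the same spread in all groups, and all mgb-/- kidneys shifted alike. Some kidneys kept Ces1f near control, so these rates do not carry over to such genes. For the Ces2a reckoning each control array, none of which had signal, was raised to its lowest signal well above background. The spots of the other group were left as measured. The 8 genes and all lists were chosen with earlier results of these data known. Named genes were the 8, the other carboxylesterases, called genes with the largest and smallest difference of a list, the leading 3 of each marker list and the 2 genes most like each member. The alternatives were those named under the dependence on processing, of which the omission of pairs of kidneys and the likeness without 5 kidneys were added after seeing the data. Alignments used Biopython 1.88.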

Additional observations from a re-analysis of the deposited data

Results flagged for a closer look

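Single kidneys stood apart from their group in 5 of the 32 combinations of gene and group examined, by a gap to the nearest kidney that took up more of the group's range than Dixon's 95% critical value allows. Chance alone marks about 1 in 20 groups, and genes of 1 kidney are not independent of each other. Severe 5 was lowest for Ces1d at 1.07, where the next severe kidney read 3.49, and for Ces1e at -0.44, where the next read 2.39. The summed level of proximal tubule markers was lowest in that kidney as well, at 760. Mild 4 was highest of the mild kidneys for Ces1f at 5.92, where the next read 3.15, and for Ces2c at 5.33, where the next read 4.01. The same kidney had a summed level of male-biased genes of 129 and of adrenal markers of 127.7. Control 2 was lowest of the controls for Ces1g at -0.56, where the next read 0.17. The causes were not tested.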

How the results depend on the processing

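Of 39 other settings for each grade and 38 for all mgb-/- kidneys, the count of the 8 genes called stayed within 1.5 times in every one for mgb-/- against control (3 to 6) and at 0 in every comparison between grades. Against mild kidneys' main count of 4 the fit with a replicate block gave 1, and leaving out 1 kidney gave 1 to 4. Against the 5 of severe kidneys the replicate block gave 3, fitting only the groups compared gave 3, leaving out 1 kidney gave 2 to 6, and leaving out severe 4 and severe 5 together, a choice made after seeing the data, gave 1. Against the 1 of moderate kidneys, 0 genes were called with quantile normalization, with no filter on dim probes, with a filter on all 24 arrays, with the replicate block, with slide as a block, with only the groups compared, and without mild 4 and moderate 1 (also chosen after seeing the data). It was 5 with array quality weights, 2 at an adjusted p under 0.1, 3 without severe 4 and severe 5, and 0 to 3 when 1 kidney was left out. With slide as a block the genes called in all for moderate against control went from 200 to 145, and the replicate block is given below. The counts in other settings stand without the share of all genes called in the same setting, so they are not read as changes particular to the 8 genes. The call for another carboxylesterase, Ces2b, became 0 with normexp correction, with the filter on all 24 arrays, where its missing value drops it, and with the replicate block. With no fold minimum 2 were called, Ces2g being the other, and leaving out 1 kidney kept 1.

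Kidneys that lost most calls in mild against control were control 3 (count 1) and control 4, mild 2, mild 3 and mild 7 (count 2 each). In severe against control, leaving out severe 2 gave 3 and leaving out severe 5 gave 2. Scaling by the median, the authors' table and the mean of a gene's probes changed no count by more than 1.5 times. The r of deviations of 33 same-numbered pairs ran from -0.55 to 0.65 with a median of 0.00, and 10 of them had an r over 0.1. Of the 24 kidneys, 6 correlated best with their own number. Equal replicate numbers thus did not pair kidneys in general, but the check cannot tell whether some numbers do. With the replicate block the genes called fell from 862 to 634 for mgb-/-, 616 to 273 for mild, 200 to 17 for moderate and 1316 to 972 for severe against control, from 129 to 52 for severe against mild, and rose from 2 to 7 for severe against moderate. Dim probes limit Ces1c, Ces1g and Ces2a, whose differences shrink under settings that raise low values. The cause of the other changes was not tested.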
